A study of Homo sapiens with 18 samples.

Results

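The response to RepSox was compared between SW620 and HT-29 iZEB1, 2 human colorectal cancer cell lines, as the difference (SW620 with RepSox minus SW620 with DMSO) minus (HT-29 iZEB1 with DOX and RepSox minus HT-29 iZEB1 with DOX and DMSO). The comparison used 12 of the 18 RNA sequencing libraries, 3 in each of 4 groups, and all genes: 18869 of the 60642 in the count table passed the filter on low counts and were tested. Of these, 12294 were measured in both lines, meaning a mean of at least 1 CPM in at least 1 group of each line, where CPM is the count scaled to library size, per 1 M counts. SW620 had RepSox at 10 µM for 24 h, or the vehicle DMSO, with no inducer. HT-29 iZEB1 is an HT-29 line that carries ZEB1 under a promoter induced by doxycycline (DOX), and both of its groups had DOX at 1 µg per ml, with RepSox at 10 µM or with DMSO. The treatment protocol of the labels gives 24 h of DOX together with RepSox, while the design text gives 48 h of DOX. DOX was thus present in both HT-29 groups and in neither SW620 group, so that line, DOX and source of ZEB1 cannot be told apart. The sources used here give no clone, promoter or vector for the inducible gene. HT-29 iZEB1 with DOX is called DOX-treated HT-29 below.

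RepSox is a small molecule that blocks the kinase of ALK5, the type I receptor of TGF-β, encoded by TGFBR1. When TGF-β binds, the type II receptor activates ALK5, which phosphorylates SMAD2 and SMAD3. These enter the nucleus with SMAD4 and regulate genes of matrix, adhesion and cell cycle arrest, as well as the pathway's own inhibitors such as SMAD7. ZEB1 is a zinc-finger repressor that binds E-box sequences in epithelial genes, among them CDH1, and is a driver of the epithelial-mesenchymal transition (EMT), in which epithelial cells lose junctions and gain motility.

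The 12 libraries held 36.8 to 39.8 M counts each. Whether the 3 libraries of a group came from different cultures is not stated in the labels, and the p-values cover the spread between them and nothing more, which may be technical. HT-29 iZEB1 with DOX and DMSO replicate 2 stood apart from the other libraries of its group, with a chi-square per degree of freedom of 32.6 and 42.6 against them, where other pairs of replicates had 3.93 to 24.1. The next highest were those of HT-29 iZEB1 with DOX and RepSox replicate 1, at 16.1 and 24.1 against its group. Replicates 2 and 3 of that group had 7 against each other, and SW620 pairs at most 8.62. Colon epithelial markers summed to 9313 to 9895 CPM in SW620 with RepSox, 6274 to 6676 CPM in SW620 with DMSO, 10400 to 11200 CPM in DOX-treated HT-29 with RepSox and 4584 to 5006 CPM with DMSO. In each group 7 of the 9 markers were above 1 CPM. CDX2 was among the markers above 1 CPM only in SW620, and KRT20 only in HT-29. KRT8 and KRT18 made up most of each sum, and CDX2 and KRT20 moved the other way. Mean CDX2 was 7.1 CPM in SW620 with RepSox against 9.18 CPM with DMSO, and mean KRT20 76.9 against 105 CPM in DOX-treated HT-29. EdgeR's quasi-likelihood test called 5 of the 9 higher and 0 lower with RepSox in SW620, and 6 higher and 1 lower in DOX-treated HT-29. Over all genes tested, 5.23% were called higher in SW620 and 22.6% in HT-29. Summed markers of fibroblasts were at most 13.3 CPM, those of leukocytes at most 9.01 CPM and those of endothelial cells at most 11.9 CPM in any library. In bulk RNA, fewer cells of a kind and less RNA per cell cannot be told apart.

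ZEB1 and CDH1 were examined before the rest. ZEB1 is a protein-coding gene (GRCh38, chromosome 10, 31318495 to 31529814, plus strand) and had 25, 23.7 and 23.4 CPM in SW620 with RepSox against 19.9, 20.6 and 24.8 CPM with DMSO. The SW620 groups overlapped (log2 0.14, SE 0.08, adjusted p = 0.338 in edgeR's quasi-likelihood test). In DOX-treated HT-29, ZEB1 had 14.8, 16.1 and 17.6 CPM with RepSox against 387, 401 and 392 CPM with DMSO. The HT-29 libraries labelled with DOX and RepSox therefore did not hold ZEB1 at the induced level: it was 24.3-fold lower than with DOX and DMSO (log2 -4.60, SE 0.09, adjusted p = 1.12e-17) and below every SW620 library. Scaled together with the HT-29 libraries without DOX, it had 16.1 ± 1.34 CPM with DOX and RepSox, 5.46 ± 0.284 CPM with RepSox alone and 8.62 ± 1.62 CPM with DMSO alone (SD, n = 3 each). Every HT-29 response below thus compares libraries that also differ in ZEB1 by this much, and every SW620 response libraries in which a change of ZEB1 was not called. The libraries are grouped by their labels. Whether the low ZEB1 of those labelled with DOX and RepSox comes from the treatment or from how they were labelled was not tested. RepSox and the lower ZEB1 cannot be told apart in the HT-29 libraries, and the counts do not separate the inducible from the cells' own ZEB1.

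CDH1, which encodes the junction protein E-cadherin, had 18.2, 18.4 and 18.8 CPM in SW620 with RepSox against 11.3, 7.94 and 11 CPM with DMSO. In DOX-treated HT-29 CDH1 had 366, 346 and 352 CPM with RepSox against 238, 238 and 248 CPM with DMSO. It was higher with RepSox in both lines, with no overlap of the groups in either, by 1.83-fold in SW620 (adjusted p = 2.90e-06) and 1.47-fold in DOX-treated HT-29 (adjusted p = 8.34e-06). The difference did not pass the threshold of 0.05 (log2 0.32, 95% interval 0.06 to 0.57, adjusted p = 0.0577), although DESeq2, limma-voom and the fit of genes measured in both lines called it at adjusted p = 0.0331, 0.0488 and 0.0474. VIM, the mesenchymal filament gene vimentin, had 231 ± 4.34 CPM in SW620 with RepSox against 248 ± 4.3 CPM with DMSO, and 0.52 ± 0.0977 CPM in DOX-treated HT-29 with RepSox against 0.898 ± 0.391 CPM with DMSO (SD, n = 3 each). It was abundant in SW620, where no change was called, and at most 1.17 CPM in any DOX-treated HT-29 library. In DOX-treated HT-29 VIM was called lower with RepSox, at this low level. That call was lost under 2 other settings and without any of 4 libraries in turn.

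Across genes the lines responded to RepSox to different extents. edgeR's quasi-likelihood test called a difference for 5869 of the 18869 genes tested (31.1%), 2957 with a higher response in SW620 (15.7%) and 2912 with a lower response (15.4%). Between RepSox and DMSO, 1762 genes were called in SW620 (9.34%), 986 higher (5.23%) and 776 lower (4.11%). In DOX-treated HT-29, 9046 were called (47.9%), 4270 higher (22.6%) and 4776 lower (25.3%). With libraries scaled by their totals alone, the higher share of the SW620 calls was 44%, against 56% in the test as run. The balance of higher and lower calls depended on the settings. In HT-29 more genes were called higher than lower without a filter (4650 and 4317), with all 18 libraries (4865 and 4473), with the 6 HT-29 libraries alone (4059 and 3934) and without SW620 with RepSox replicate 3 (4617 and 4277). The differences were 2649 higher and 3202 lower without a filter, 2748 and 3451 with all 18 libraries, and 2324 and 2891 without SW620 with RepSox replicate 3, so neither direction is read as the more frequent one. The SW620 count depended on the fit: it was 3338 when the 6 SW620 libraries were fitted alone, and between 1124 and 1163 without SW620 with RepSox replicate 1, 2 or 3 or SW620 with DMSO replicate 1 or 2. Among the 12294 genes measured in both lines, a difference was called for 5215 (42.4%), 2571 higher (20.9%) and 2644 lower (21.5%). Of the 12294, 1432 were called between RepSox and DMSO in SW620 (11.6%, with 784 higher, 6.38%, and 648 lower, 5.27%). In DOX-treated HT-29, 7444 were called (60.5%, with 3681 higher, 29.9%, and 3763 lower, 30.6%).

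The HT-29 response was the larger of the pair for 4701 of the 5215 genes with a called difference (90.1%). The SD of the log2 responses over genes measured in both lines was 0.25 in SW620 and 0.60 in DOX-treated HT-29, and 91 genes were called and changed at least 2-fold in SW620 against 1002 in DOX-treated HT-29. Of the SW620 calls, 1083 were also called in DOX-treated HT-29, which is 75.6% of the SW620 list and 14.5% of the HT-29 list. In 740 of these the direction was the same and in 343 it was opposite. The responses of the lines were correlated across these genes at a Pearson r of 0.26 (Spearman 0.28), and genes are not independent replicates. The responses of the 3 libraries of each line, taken against the mean of that line's DMSO libraries, did not overlap between the lines for 8216 genes (66.8%). The 3 values of a line share 1 DMSO mean, whose error shifts them together, so this share is a description and not a test.

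The called differences fell into patterns by the call in each line. The most frequent was a change in DOX-treated HT-29 with none called in SW620: 2283 genes that were higher in HT-29 (18.6%) and 1846 that were lower (15%). Genes called in opposite directions numbered 255 that were higher in SW620 and lower in HT-29 (2.07%) and 88 that were lower in SW620 and higher in HT-29 (0.716%). Called the same way but by more in HT-29 were 124 higher (1.01%) and 204 lower (1.66%) genes, and by more in SW620 were 25 higher (0.203%) and 4 lower (0.0325%) genes. A change in SW620 with none called in HT-29 was found for 156 higher (1.27%) and 55 lower (0.447%) genes. For 175 genes (1.42%) the difference passed though neither line did. Partly overlapping these patterns, 360 genes (2.93%) were called the same way in both lines with the 95% interval of the difference within 1.5-fold. Of the 7079 genes with no called difference (57.6%), 5113 had that interval within 1.5-fold, and for the other genes a larger difference was not excluded at this spread.

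**Figure D1:**
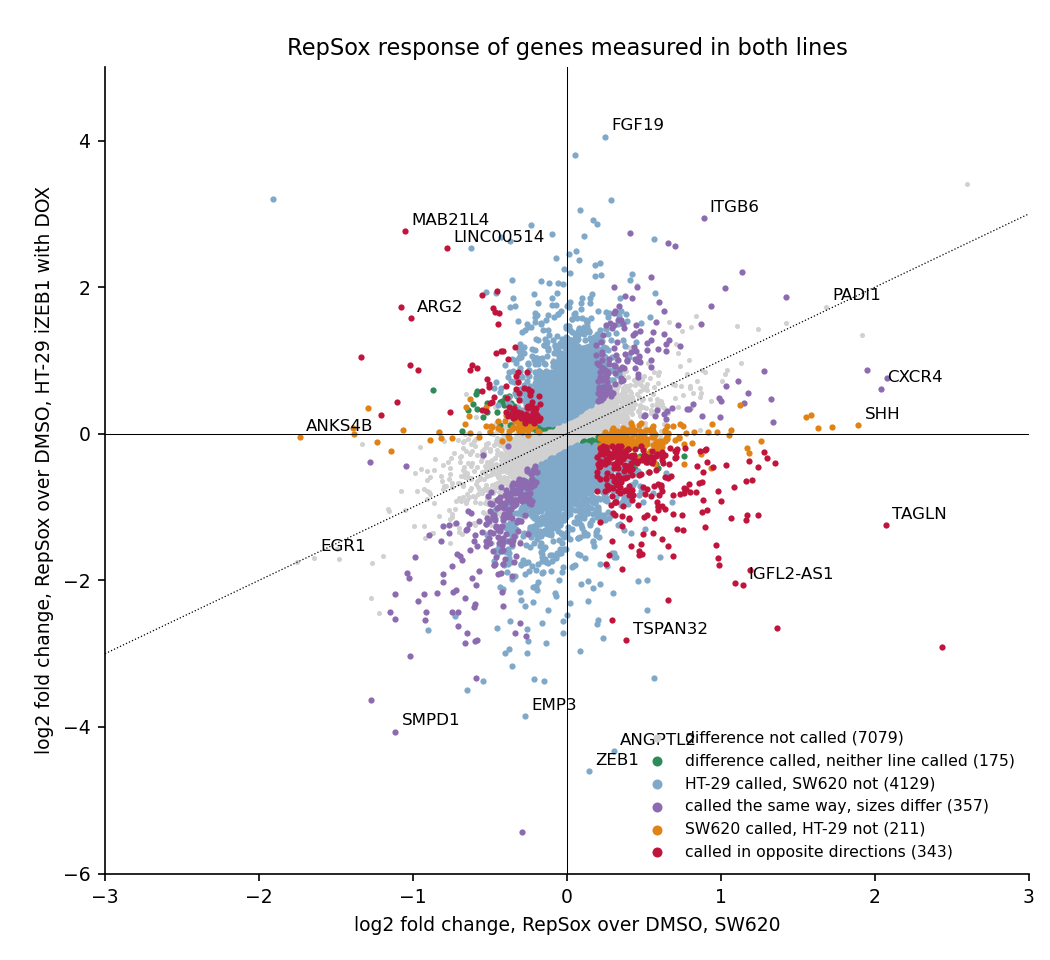
Log2 fold change of each gene with RepSox over DMSO in SW620 (x axis) and in HT-29 iZEB1 with DOX (y axis), for the 12294 genes measured in both lines; colours give the pattern of calls, and the dotted line marks equal responses. The cloud is taller than it is wide, and the 343 genes called in opposite directions lie in the lower right (TAGLN, IGFL2-AS1) and the upper left (MAB21L4, ARG2).

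Among genes that rose in SW620 and fell in DOX-treated HT-29, TAGLN, IGFL2-AS1 and TSPAN32 had the largest differences of those with at least 5 CPM in a group. TAGLN (chromosome 11, 117199321 to 117204782, plus strand), which encodes the actin-binding protein transgelin, had 56.1, 56.2 and 58.6 CPM in SW620 with RepSox against 15.8, 12.7 and 12.2 CPM with DMSO. In DOX-treated HT-29 TAGLN had 2.6, 3.11 and 2.61 CPM with RepSox against 5.85, 5.95 and 7.95 CPM with DMSO. The groups did not overlap in either line: TAGLN was 4.21-fold higher with RepSox in SW620 and 2.37-fold lower in DOX-treated HT-29 (log2 difference 3.32, SE 0.18, adjusted p = 8.82e-11). Every SW620 library lay above every HT-29 library. IGFL2-AS1 (chromosome 19, 46189166 to 46203083, minus strand), named as antisense to IGFL2 and annotated as a lincRNA, had 22.7, 22.9 and 22.6 CPM in SW620 with RepSox against 11.4, 10.1 and 9.45 CPM with DMSO. In DOX-treated HT-29 IGFL2-AS1 had 3.46, 4.04 and 3.93 CPM with RepSox against 17.4, 15.5 and 15.1 CPM with DMSO. The groups did not overlap in either line, and the higher level was that of SW620 with RepSox and of HT-29 with DMSO (log2 difference 3.21, SE 0.14, adjusted p = 7.13e-12). Since strand is not given, reads of IGFL2-AS1 and of an overlapping gene cannot be told apart. TSPAN32 (chromosome 11, 2301997 to 2318200, plus strand), a tetraspanin membrane protein gene, had 52.4, 49.4 and 52 CPM in SW620 with RepSox against 43.3, 39.3 and 35.3 CPM with DMSO. In DOX-treated HT-29 TSPAN32 had 0.8, 0.246 and 0.33 CPM with RepSox against 2.78, 3.68 and 3.19 CPM with DMSO. Its change was small in SW620 (log2 0.39, adjusted p = 0.0346) and large in HT-29 (log2 -2.81). The SW620 call of TSPAN32 was lost with the replicate number as a term within each line (adjusted p = 0.111) and without any single SW620 library except SW620 with DMSO replicate 1 (0.0818 to 0.159).

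Other genes called in these opposite directions follow. FN1, the matrix protein fibronectin, had 81.6, 90.2 and 80.9 CPM in SW620 with RepSox against 57, 61.3 and 62.1 CPM with DMSO. In DOX-treated HT-29 FN1 had 1.23, 1.86 and 1.21 CPM with RepSox against 3.92, 4.99 and 4.59 CPM with DMSO. It rose in SW620 and fell in HT-29, with no overlap in either. ETS1, a transcription factor, had 164, 163 and 169 CPM in SW620 with RepSox against 102, 96.7 and 109 CPM with DMSO. In DOX-treated HT-29 ETS1 had 10.3, 10.2 and 10.7 CPM with RepSox against 24.3, 20.1 and 22.5 CPM with DMSO. ETS1 likewise did not overlap in either line (FN1 log2 difference 2.13, SE 0.17; ETS1 1.79, SE 0.10). AXL, a receptor tyrosine kinase, had mean levels of 102 against 80 CPM in SW620 and 6.55 against 23.5 CPM in DOX-treated HT-29 (RepSox against DMSO), and MYOF, which encodes the membrane repair protein myoferlin, 462 against 331 CPM in SW620 and 67.5 against 192 CPM in DOX-treated HT-29. JAG1, a Notch ligand, had 157, 164 and 156 CPM in SW620 with RepSox against 87.3, 87.2 and 85.9 CPM with DMSO. In DOX-treated HT-29 JAG1 had 13.2, 17.3 and 16 CPM with RepSox against 31.8, 33.1 and 33 CPM with DMSO: it was 1.83-fold higher in SW620 and 2.11-fold lower in DOX-treated HT-29 (log2 difference 1.95, SE 0.11, adjusted p = 1.20e-10). DKK1, a secreted WNT inhibitor, had 18.2, 20.9 and 18.9 CPM in SW620 with RepSox against 9.29, 8.25 and 8.25 CPM with DMSO. In DOX-treated HT-29 DKK1 had 11.8, 14.9 and 14.1 CPM with RepSox against 29.9, 28.3 and 30 CPM with DMSO. With RepSox SW620 had more DKK1 than HT-29, and with DMSO less (log2 difference 2.29, SE 0.13, adjusted p = 3.12e-10). EPHB6, a kinase-dead Eph receptor gene, rose 2.3-fold in SW620 and fell 1.55-fold in HT-29, and EFNB2, an ephrin ligand, rose 1.43-fold and fell 1.68-fold.

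Further opposite genes were spread over other roles. CDKN1C, which encodes the cell cycle inhibitor p57, rose 1.38-fold in SW620 (adjusted p = 0.0172) and fell 3.15-fold in DOX-treated HT-29. WIPI1, an autophagosome protein gene, had 21, 22 and 22.4 CPM in SW620 with RepSox against 8.95, 10.3 and 9.96 CPM with DMSO. In DOX-treated HT-29 WIPI1 had 5.66, 5.27 and 4.21 CPM with RepSox against 11.8, 11.6 and 11 CPM with DMSO. Its groups did not overlap in either line (log2 difference 2.34, SE 0.15, adjusted p = 6.66e-10). The stress cytokine gene GDF15 rose 1.6-fold in SW620 and fell 1.49-fold in HT-29, SOX4, a transcription factor gene, rose 1.23-fold and fell 2.75-fold, and TNFAIP3, an inhibitor of NF-κB, rose 1.55-fold and fell 1.51-fold. The integrin subunits ITGA1, ITGA2 and ITGB1 had log2 responses of 0.71, 0.90 and 0.33 in SW620 and of -0.26, -0.23 and -0.57 in HT-29. The opposite direction of ITGA2, ITGA1 and TNFAIP3 rests on calls that some settings lost. The HT-29 call of ITGA2 was lost with DESeq2 (adjusted p = 0.056), median-of-ratios scaling (0.0519), no filter (0.0578), all 18 libraries (0.091), the 6 HT-29 libraries alone (0.0587) and both replicate terms (0.0536 and 0.0943). It was also lost without any of 9 libraries in turn, up to 0.148 without HT-29 iZEB1 with DOX and RepSox replicate 1. The HT-29 call of ITGA1 was lost without a filter (adjusted p = 0.0733), with the 6 HT-29 libraries alone (0.0673), with the replicate term within each line (0.0514) and without any of 5 libraries, up to 0.13 without HT-29 iZEB1 with DOX and DMSO replicate 3. The HT-29 call of TNFAIP3 was lost with limma-voom (adjusted p = 0.0614), with the 6 HT-29 libraries alone (0.0695) and without any of 3 HT-29 libraries, up to 0.199 without DMSO replicate 1, and its SW620 call without any of 4 SW620 libraries (up to 0.114 without DMSO replicate 3). The SW620 call of CDKN1C was lost without any of 4 SW620 libraries (up to 0.107 without DMSO replicate 2). The differences of these 4 genes kept their call under every alternative run.

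In the reverse direction, genes fell in SW620 and rose in DOX-treated HT-29. MAB21L4 (chromosome 2, 240886048 to 240896889, minus strand) had 4.38, 3.68 and 4.16 CPM in SW620 with RepSox against 7.43, 8.8 and 9.1 CPM with DMSO. In DOX-treated HT-29 MAB21L4 had 1.51, 1.42 and 0.88 CPM with RepSox against 0.238, 0.267 and 0.051 CPM with DMSO. With RepSox it was 2.07-fold lower in SW620 and 6.82-fold higher in HT-29, where DMSO libraries were near 0 (log2 difference -3.82, SE 0.39, adjusted p = 3.70e-07). Scaled with the other HT-29 groups, it had 2.16 ± 0.102 CPM with RepSox alone and 7.07 ± 0.117 CPM with DMSO alone (SD, n = 3 each). ARG2 (chromosome 14, 67619798 to 67651720, plus strand), the mitochondrial arginase, had 11, 11.8 and 11.9 CPM in SW620 with RepSox against 23.3, 24.6 and 22.2 CPM with DMSO. In DOX-treated HT-29 ARG2 had 5, 4.01 and 3.79 CPM with RepSox against 1.38, 1.44 and 1.45 CPM with DMSO. SW620 stayed above HT-29 in all libraries while the gap narrowed (log2 difference -2.60, SE 0.17, adjusted p = 9.87e-10). LINC00514, a long non-coding RNA, had 0.685 ± 0.0529 CPM in SW620 with RepSox against 1.18 ± 0.239 CPM with DMSO, and 6.66 ± 0.222 CPM in DOX-treated HT-29 with RepSox against 1.15 ± 0.218 CPM with DMSO (SD, n = 3 each; log2 difference -3.32, SE 0.28, adjusted p = 4.11e-08). ID2, an inhibitor of basic helix-loop-helix factors and a BMP target, had 16.6, 17.6 and 16.1 CPM in SW620 with RepSox against 22.3, 23.4 and 23.1 CPM with DMSO. In DOX-treated HT-29 ID2 had 51.3, 44.6 and 48.9 CPM with RepSox against 11.8, 11.9 and 13.8 CPM with DMSO. The groups of ID2 did not overlap in either line (log2 difference -2.40, SE 0.12, adjusted p = 2.29e-11). CA9, a carbonic anhydrase of hypoxic cells, and the immediate early gene FOS had log2 differences of -2.09 and -1.27. The SW620 calls of LINC00514 and CA9 were lost without any of 4 SW620 libraries (up to adjusted p = 0.178 and 0.195), and that of FOS without DMSO replicate 1 (0.0517) or RepSox replicate 3 (0.0503). For LINC00514 it was also lost with limma-voom (0.0654) and with the replicate term within each line (0.0679). C1orf210, of the epithelial list, had 0.394, 0.365 and 0.426 CPM in SW620 with RepSox against 0.722, 1.19 and 0.869 CPM with DMSO. In DOX-treated HT-29 C1orf210 had 8.12, 5.87 and 7.2 CPM with RepSox against 1, 1.41 and 1.6 CPM with DMSO. It was below 1 CPM on average in both SW620 groups (log2 difference -3.62, SE 0.35, adjusted p = 1.96e-07), and its SW620 call was lost without SW620 with DMSO replicate 2 (adjusted p = 0.072).

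The promoter windows of MAB21L4, C1orf210 and S100A14, a gene described next, are shown because each holds the E-box that ZEB1 is known to bind, and because MAB21L4 and C1orf210 fell in SW620 while S100A14 was not called there. The windows run from 250 bases before to 50 after the start site, in RefSeq on GRCh38.p14, read along the gene, with each CAGGTG or CACCTG (the same site on either strand) in capitals. That of MAB21L4 is chr2:240896107-240896406, that of C1orf210 chr1:43285532-43285831 and that of S100A14 chr1:153616276-153616575, all on the minus strand.
MAB21L4: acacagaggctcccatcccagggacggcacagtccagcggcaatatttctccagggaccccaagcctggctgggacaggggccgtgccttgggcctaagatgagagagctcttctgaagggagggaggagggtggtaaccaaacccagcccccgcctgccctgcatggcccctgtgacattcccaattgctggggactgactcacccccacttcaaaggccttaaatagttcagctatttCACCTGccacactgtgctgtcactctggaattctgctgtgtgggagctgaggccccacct
C1orf210: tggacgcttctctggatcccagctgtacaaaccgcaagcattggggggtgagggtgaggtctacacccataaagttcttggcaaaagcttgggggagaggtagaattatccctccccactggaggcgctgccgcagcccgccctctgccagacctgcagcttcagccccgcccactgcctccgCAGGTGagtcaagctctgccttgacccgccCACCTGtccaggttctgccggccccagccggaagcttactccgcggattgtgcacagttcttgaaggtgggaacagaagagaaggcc
S100A14: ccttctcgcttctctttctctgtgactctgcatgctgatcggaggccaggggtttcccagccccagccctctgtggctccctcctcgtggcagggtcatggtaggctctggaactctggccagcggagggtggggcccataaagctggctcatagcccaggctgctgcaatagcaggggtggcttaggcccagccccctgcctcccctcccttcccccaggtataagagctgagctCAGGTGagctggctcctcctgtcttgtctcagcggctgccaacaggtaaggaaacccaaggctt
The site lies 10 bases before the start in MAB21L4 and 14 before it in S100A14, and the 2 sites of C1orf210 lie 67 and 37 bases before it. MAB21L4 has a second listed start whose window holds none. The share of windows with such a site was 20.6% of all 35116 windows and 18.7% of the 13148 of genes measured in both lines. It was 24.5% for genes lower in SW620 and higher in HT-29 (94 windows), and 14.8% for those higher in SW620 and lower in HT-29 (311 windows). For genes called in HT-29 and not in SW620 it was 21.7% (higher, the pattern of S100A14, 2373 windows) and 14.8% (lower, 2156 windows). For those called in SW620 and not in HT-29 it was 12.9% (higher, 202 windows) and 29.1% (lower, 55 windows). Such a spread was therefore not particular to opposite genes. C1orf210 was not among the genes measured in both lines and is in none of these patterns. Among windows of the epithelial list 24 of 40 held such a site (60%, with a window for 32 of the 59 tested members), against 5 of 56 of the mesenchymal list (8.93%). A match is a description of the sequence alone.

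**Figure D2:**
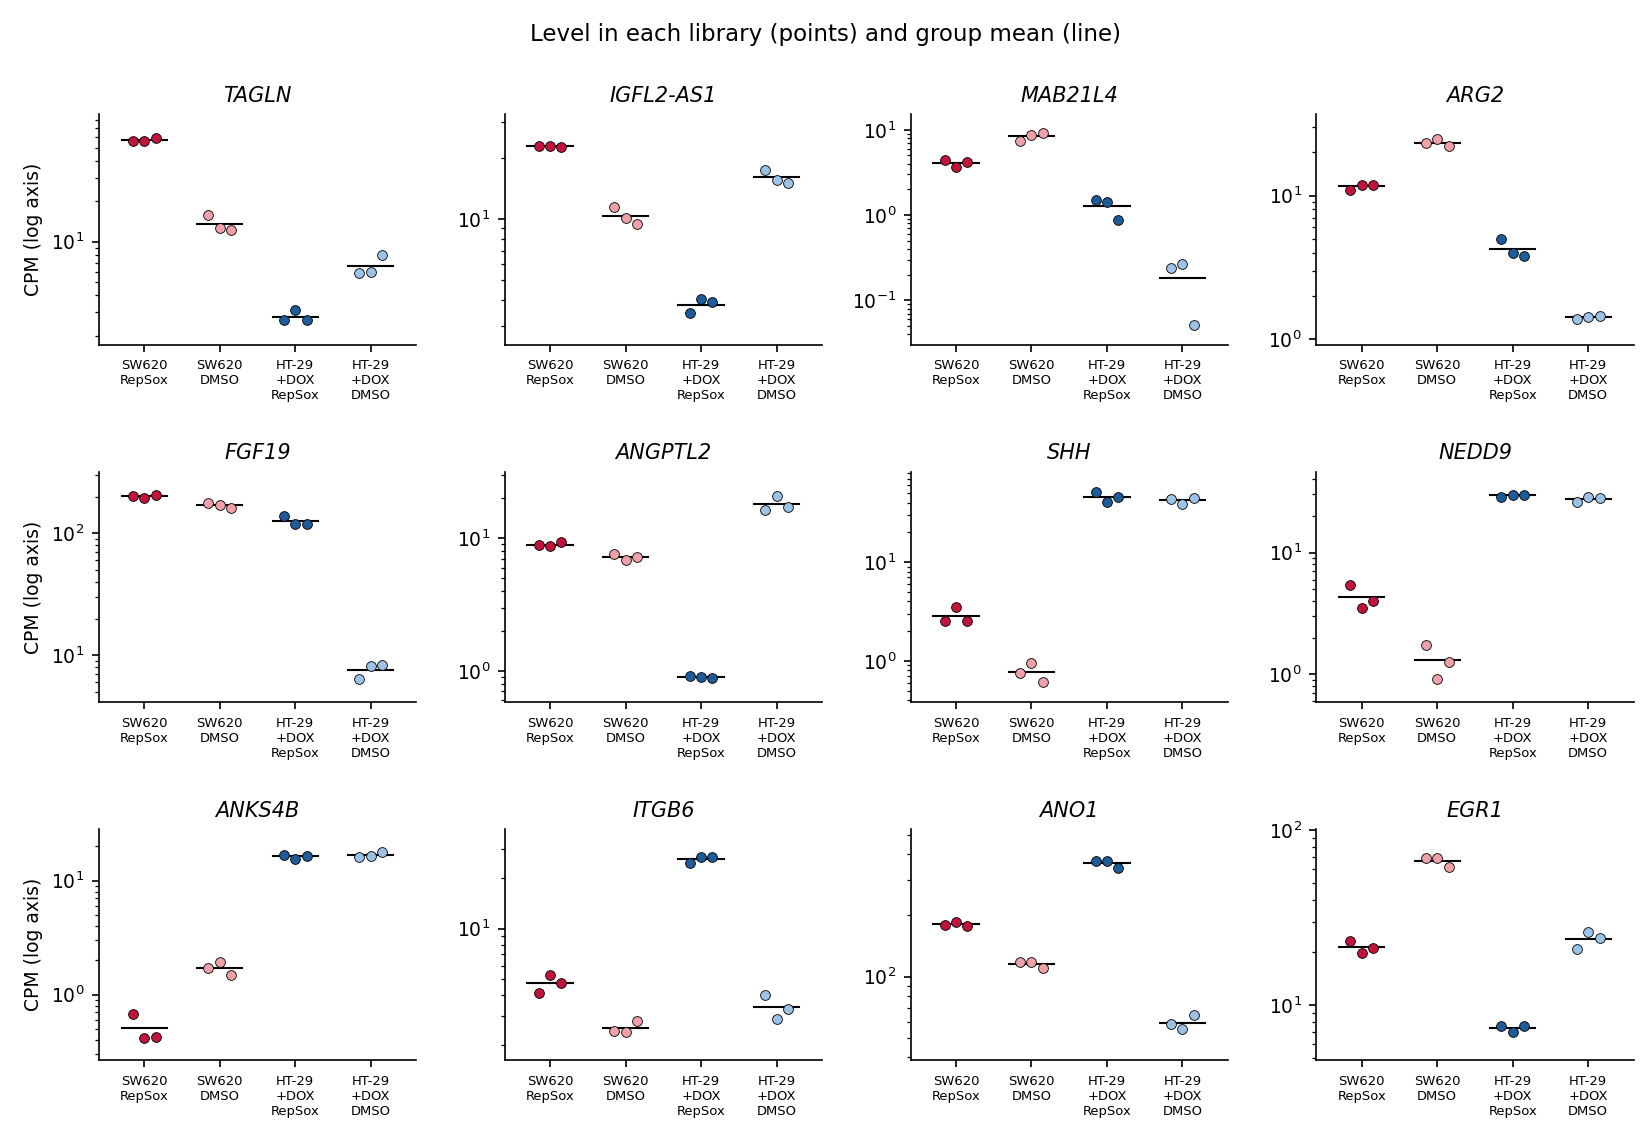
CPM of 12 genes (log axis, a separate scale for each gene) in the 3 libraries of SW620 with RepSox, SW620 with DMSO, HT-29 iZEB1 with DOX and RepSox, and HT-29 iZEB1 with DOX and DMSO; points are libraries and lines group means. ITGB6 and ANO1 rise in both lines, TAGLN and IGFL2-AS1 move up in SW620 and down in HT-29, MAB21L4 and ARG2 the reverse, FGF19 and ANGPTL2 move mainly in HT-29, SHH, NEDD9 and ANKS4B mainly in SW620, and EGR1 falls by nearly the same factor in both.

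Genes called in DOX-treated HT-29 and not in SW620 made up the most frequent pattern of called differences. FGF19 (chromosome 11, 69698232 to 69704642, minus strand), an enteric hormone that limits bile acid synthesis, had 203, 195 and 208 CPM in SW620 with RepSox against 177, 172 and 161 CPM with DMSO. In DOX-treated HT-29 FGF19 had 139.8, 119 and 120.1 CPM with RepSox against 6.35, 8.16 and 8.28 CPM with DMSO. It was 16.6-fold higher in DOX-treated HT-29, where the DMSO level lay far below that of SW620 and the RepSox level nearer to it (log2 difference -3.81, SE 0.12, adjusted p = 1.00e-13). The SW620 groups did not overlap either (log2 0.25, adjusted p = 0.0509, and 0.000387 when SW620 was fitted alone). LARGE2, a glycosyltransferase of dystroglycan, had 75.1, 74.7 and 73.6 CPM in SW620 with RepSox against 76.7, 73 and 65.9 CPM with DMSO. In DOX-treated HT-29 LARGE2 had 4.92, 3.11 and 3.77 CPM with RepSox against 0.265, 0.107 and 0.459 CPM with DMSO: the SW620 groups overlapped and the HT-29 groups did not (log2 difference -3.75, SE 0.29, adjusted p = 9.43e-09). S100A14 (chromosome 1, 153614255 to 153616986, minus strand), an EF-hand protein gene of epithelia, had 3.04, 3.99 and 3.97 CPM in SW620 with RepSox against 5.08, 5.01 and 4.7 CPM with DMSO. In DOX-treated HT-29 S100A14 had 14.7, 12.8 and 11.7 CPM with RepSox against 2.3, 1.84 and 1.96 CPM with DMSO. S100A14 was 6.42-fold higher with RepSox in DOX-treated HT-29, while in SW620 all RepSox libraries lay below DMSO (log2 -0.43, adjusted p = 0.0576, and 0.0244 when SW620 was fitted alone). The log2 difference was -3.11 (SE 0.20, adjusted p = 7.46e-10). Scaled with the other HT-29 groups, S100A14 had 32.6 ± 1.27 CPM with RepSox alone and 44.3 ± 1.03 CPM with DMSO alone (SD, n = 3 each).

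Among those lower in HT-29, ZEB1 itself had the largest difference (log2 4.74, SE 0.12, adjusted p = 1.35e-15). ANGPTL2 (chromosome 9, 127087332 to 127122883, minus strand), a secreted angiopoietin-like protein gene, had 8.87, 8.69 and 9.32 CPM in SW620 with RepSox against 7.63, 6.88 and 7.23 CPM with DMSO. In DOX-treated HT-29 ANGPTL2 had 0.915, 0.901 and 0.88 CPM with RepSox against 16.3, 20.9 and 17.1 CPM with DMSO. With RepSox SW620 had more ANGPTL2 than HT-29, and with DMSO less (log2 difference 4.63, SE 0.18, adjusted p = 1.12e-12). EMP3, a membrane protein gene of the PMP22 family, had 32.7, 33.6 and 32.2 CPM in SW620 with RepSox against 42.3, 40.4 and 36.1 CPM with DMSO. In DOX-treated HT-29 EMP3 had 1.92, 1.23 and 1.24 CPM with RepSox against 18.1, 26.3 and 18.6 CPM with DMSO. It fell 14.4-fold in HT-29; in SW620 every RepSox library was below every DMSO library by a smaller step (log2 -0.27, adjusted p = 0.184, and 0.00312 when SW620 was fitted alone). Such steps were not rare: of the 4129 genes called in HT-29 and not in SW620, 566 (13.7%) were called in the fit of the 6 SW620 libraries alone, 337 in the HT-29 direction and 229 in the opposite one. The lack of a call in SW620 is therefore not evidence that a gene did not respond there.

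Fewer genes were called in SW620 and not in DOX-treated HT-29, and those with the largest differences were low in SW620. SHH (chromosome 7, 155799986 to 155812273, minus strand), the ligand Sonic hedgehog, had 2.52, 3.55 and 2.56 CPM in SW620 with RepSox against 0.748, 0.96 and 0.613 CPM with DMSO. In DOX-treated HT-29 SHH had 50.9, 41.1 and 45.9 CPM with RepSox against 44, 38.9 and 44.5 CPM with DMSO. It was 3.71-fold higher with RepSox in SW620, still far below HT-29, where the groups overlapped (log2 0.11, SE 0.10; log2 difference 1.78, SE 0.22, adjusted p = 5.35e-06). NEDD9, a scaffold of focal adhesions and a known TGF-β target, had 5.41, 3.52 and 4.02 CPM in SW620 with RepSox against 1.75, 0.908 and 1.25 CPM with DMSO. In DOX-treated HT-29 NEDD9 had 28.8, 29.8 and 29.6 CPM with RepSox against 26.1, 28.6 and 27.9 CPM with DMSO. It rose 3.3-fold in SW620; the HT-29 groups did not overlap but differed by a log2 of 0.10 (adjusted p = 0.537). TRPV6, an epithelial calcium channel gene, rose 2.27-fold in SW620, to 9.68 ± 1.56 CPM with RepSox against 4.27 ± 0.66 CPM with DMSO (SD, n = 3 each; log2 difference 1.45, SE 0.29, adjusted p = 0.0007).

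Genes lower in SW620 in this pattern included 2 of the apical side of epithelial cells. ANKS4B, a scaffold of the brush border, had 0.682, 0.417 and 0.426 CPM in SW620 with RepSox against 1.7, 1.92 and 1.48 CPM with DMSO. In DOX-treated HT-29 ANKS4B had 16.8, 15.6 and 16.4 CPM with RepSox against 16.3, 16.4 and 18 CPM with DMSO. Its SW620 groups did not overlap and its HT-29 groups did (log2 difference -1.69, SE 0.23, adjusted p = 1.05e-05). TJP3, which encodes the tight junction protein ZO-3, had 0.499, 0.313 and 0.4 CPM in SW620 with RepSox against 1.5, 0.934 and 0.766 CPM with DMSO. In DOX-treated HT-29 TJP3 had 51.5, 49.5 and 45.3 CPM with RepSox against 45, 47.4 and 46 CPM with DMSO. KIF12, a kinesin gene, had means of 0.474 against 1.17 CPM in SW620 and 14.1 against 11.1 CPM in DOX-treated HT-29 (RepSox against DMSO). Both fell in SW620 (log2 -1.39, adjusted p = 0.00136 for TJP3; -1.29 and 0.016 for KIF12), at levels of at most 1.5 CPM in any SW620 library. The call of KIF12 was lost with limma-voom (0.0765) and without any of 3 SW620 libraries (up to 0.101 without RepSox replicate 2). Other SW620 responses with none called in HT-29 were those of EREG, an EGF receptor ligand (2.4-fold higher; log2 difference 1.36, SE 0.10, adjusted p = 5.24e-09), the BH3-only gene PMAIP1 (1.89-fold higher; difference 0.90), the chemokine gene CXCL3 (3-fold higher; difference 1.34) and SMAD6 (1.63-fold higher; difference 0.79).

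Many genes moved the same way by different amounts. ITGB6 (chromosome 2, 160099666 to 160200313, minus strand), the β6 subunit of an integrin that activates latent TGF-β, had 4.12, 5.25 and 4.74 CPM in SW620 with RepSox against 2.42, 2.39 and 2.81 CPM with DMSO. In DOX-treated HT-29 ITGB6 had 24.8, 26.7 and 26.8 CPM with RepSox against 4.02, 2.88 and 3.31 CPM with DMSO. With RepSox it was 1.85-fold higher in SW620 and 7.66-fold higher in HT-29, with no overlap in either line (log2 difference -2.05, SE 0.19, adjusted p = 8.70e-08). ANO1, a calcium-activated chloride channel gene, had 180.5, 186 and 177 CPM in SW620 with RepSox against 117, 118 and 111 CPM with DMSO. In DOX-treated HT-29 ANO1 had 371, 369.5 and 344 CPM with RepSox against 58.3, 55.4 and 64.3 CPM with DMSO. It rose in both lines without overlap, and by more in HT-29 (log2 difference -1.95, SE 0.09, adjusted p = 1.11e-11). EDAR, the ectodysplasin receptor gene, rose 1.33-fold in SW620 and 6.66-fold in HT-29, at a DMSO level of 0.157 CPM there. On the lower side, SMPD1, the lysosomal acid sphingomyelinase, had 3.81, 3.86 and 2.8 CPM in SW620 with RepSox against 8.31, 6.95 and 7.41 CPM with DMSO. In DOX-treated HT-29 SMPD1 had 0.543, 0.491 and 0.44 CPM with RepSox against 7.88, 9.41 and 7.52 CPM with DMSO. The DMSO levels of the lines overlapped, and with RepSox SMPD1 was 2.16-fold lower in SW620 and 16.7-fold lower in HT-29. SLC1A7, a glutamate transporter gene, fell 1.5-fold and 10-fold in the same order. SYT11, a synaptotagmin gene, had a log2 response of -0.29 in SW620 (adjusted p = 0.0408) and of -5.43 in HT-29, where each RepSox library held at most 0.0572 CPM. The SW620 call of SYT11 was lost with all 18 libraries (adjusted p = 0.119), without a filter (0.103), with the replicate term within each line (0.0889) and without any single SW620 library (0.0593 to 0.221) or HT-29 iZEB1 with DOX and RepSox replicate 2 (0.0517), and that of EDAR with that term (0.0546) and without any of 4 SW620 libraries (up to 0.0721).

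Larger in SW620 were the chemokine receptor gene CXCR4, the serine protease gene PRSS22 and ARHGDIB, an inhibitor of small GTPases. CXCR4 had 3.25, 2.53 and 2.08 CPM in SW620 with RepSox against 0.877, 0.649 and 0.383 CPM with DMSO. In DOX-treated HT-29 CXCR4 had 8.03, 6.85 and 6.93 CPM with RepSox against 4.37, 5.23 and 4.64 CPM with DMSO (log2 difference 1.42, SE 0.30, adjusted p = 0.000967). The rise was larger in SW620, which had less of it than HT-29 in both conditions. ARHGDIB had 45.7, 49 and 47.4 CPM in SW620 with RepSox against 18.3, 17.8 and 20 CPM with DMSO. In DOX-treated HT-29 ARHGDIB had 61.2, 60.8 and 63.1 CPM with RepSox against 54, 56.4 and 54.8 CPM with DMSO. It rose 2.53-fold in SW620 and 1.12-fold in HT-29 (log2 difference 1.18, SE 0.09, adjusted p = 1.19e-08). The small HT-29 rise of ARHGDIB was not called with library totals (adjusted p = 0.103), with either replicate term (0.0531 and 0.0973) or without any of 6 libraries, among them HT-29 iZEB1 with DOX and DMSO replicate 1 (0.11). PRSS22 rose 4.23-fold in SW620 and 1.7-fold in HT-29. VIPR1, the receptor of vasoactive intestinal peptide, the kinase gene SGK2 and ABLIM1, an actin-binding protein gene, were lower in both lines and by more in SW620 (log2 -1.28, -1.05 and -0.55 in SW620 against -0.39, -0.45 and -0.29 in HT-29). PRSS22 and VIPR1 were low in SW620. With all 18 libraries scaled together, PRSS22 had a mean of 3.03 CPM there with RepSox against 0.715 CPM with DMSO. VIPR1 had 0.484 against 1.18 CPM there, and 34.4 against 43.7 CPM in DOX-treated HT-29. The difference of ABLIM1 (adjusted p = 0.0284) was lost with the replicate number as a term within each line (0.0756) and without 4 of the libraries in turn, among them SW620 with DMSO replicate 3 (0.0857).

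A set of genes responded by nearly the same amount in both lines, and these were chosen for that likeness. EGR1 (chromosome 5, 138465490 to 138469315, plus strand), an immediate early zinc-finger gene downstream of ERK and serum response factor, had 23.1, 19.8 and 21.3 CPM in SW620 with RepSox against 69.5, 69.1 and 61.7 CPM with DMSO. In DOX-treated HT-29 EGR1 had 7.55, 7.04 and 7.59 CPM with RepSox against 21, 26.4 and 24.2 CPM with DMSO. It fell 3.12-fold in SW620 and 3.22-fold in HT-29, with a difference of 0.05 and a 95% interval of -0.23 to 0.32 on the log2 scale. Its promoter window (chr5:138465229-138465528, plus strand, RefSeq on GRCh38.p14) is shown with its CArG boxes, the sites of serum response factor, in capitals, because EGR1 had the largest shared fall among the named genes.
EGR1: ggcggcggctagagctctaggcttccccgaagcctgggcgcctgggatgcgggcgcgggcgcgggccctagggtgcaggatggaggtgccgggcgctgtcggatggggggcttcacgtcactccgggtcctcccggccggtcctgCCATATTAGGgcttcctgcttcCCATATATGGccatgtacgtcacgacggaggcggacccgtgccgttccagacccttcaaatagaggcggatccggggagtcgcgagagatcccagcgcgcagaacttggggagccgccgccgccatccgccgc
The 2 boxes start 105 and 83 bases before the start site. Such a box stood in 1.29% of all windows, in 1.06% of those of genes measured in both lines and in 0.467% of those of the shared genes (428 windows). PADI1, a peptidylarginine deiminase gene, had 52.4, 52.4 and 55.1 CPM in SW620 with RepSox against 17.6, 14.7 and 17.4 CPM with DMSO. In DOX-treated HT-29 PADI1 had 38, 39.4 and 34.1 CPM with RepSox against 10.8, 10.7 and 12.1 CPM with DMSO: it rose 3.21-fold in SW620 and 3.33-fold in HT-29 (interval of the log2 difference -0.30 to 0.20). SPNS2, an exporter of sphingosine-1-phosphate, had 1398, 1374 and 1437 CPM in SW620 with RepSox against 806, 781 and 706 CPM with DMSO. In DOX-treated HT-29 SPNS2 had 166, 136 and 130.3 CPM with RepSox against 72.1, 84.1 and 79.6 CPM with DMSO. SPNS2 thus rose 1.84-fold and 1.83-fold at levels far apart in the lines. TNIK, a kinase of the WNT pathway, rose 1.71-fold and 1.75-fold, and KIAA0040 2.04-fold and 1.76-fold. The linker histone gene H1-10, the guanine nucleotide exchange factor gene ARHGEF17 and MILR1 fell 1.82-fold, 1.86-fold and 1.88-fold in SW620 and 1.93-fold, 1.76-fold and 1.72-fold in HT-29.

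Some genes were measured in only 1 of the lines, so that the difference rests on few counts in the other. MDGA1, a membrane glycoprotein gene, had 37.2, 37.2 and 40.3 CPM in SW620 with RepSox against 8.9, 8.23 and 5.95 CPM with DMSO and at most 0.373 CPM in any HT-29 library. EDN2, an endothelin gene, had a mean of 9.37 against 1.91 CPM in SW620 and no count in DOX-treated HT-29 with RepSox. CCT7P2, a pseudogene whose reads could be those of its parent gene, and PKD1L2 fell 2.4-fold and 2.27-fold in SW620 and were below 1 CPM in HT-29. CEACAM6, an adhesion gene whose near-identical paralogs make its count uncertain, had 28, 26.2 and 33.2 CPM in DOX-treated HT-29 with RepSox against 1.72, 1.87 and 2.65 CPM with DMSO, and it was also higher in SW620 (log2 3.22, adjusted p = 5.62e-05) below 1 CPM. CHST4, a sulfotransferase gene, rose 11.8-fold in HT-29 and averaged 0.0348 against 0.0599 CPM in SW620; its difference was lost without SW620 with DMSO replicate 3 (adjusted p = 0.263). ATOH8, a basic helix-loop-helix factor, had 0.114, 0.0819 and 0.055 CPM in DOX-treated HT-29 with RepSox against 9.87, 12.6 and 9.4 CPM with DMSO, and BMF, a pro-apoptotic BH3-only gene, 2.72, 3.38 and 2.09 CPM in DOX-treated HT-29 with RepSox against 69.1, 80.3 and 70.4 CPM with DMSO. BMF also fell in SW620 (log2 -2.58, adjusted p = 0.00018) at a mean of 0.105 against 0.644 CPM, and its difference was lost without SW620 with RepSox replicate 1 (adjusted p = 0.105).

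The TGF-β pathway was then read by role, beginning with ligands and their binding proteins. Of 18 tested members, the test called 3 higher and 2 lower with RepSox in SW620, and 3 higher and 10 lower in DOX-treated HT-29, and the difference was called for 8 higher and 1 lower. Over all genes tested, 5.23% were called higher and 4.11% lower in SW620, and 22.6% higher and 25.3% lower in HT-29, which is the background of the list counts that follow. FSTL3, a secreted inhibitor of activins, had mean levels of 11 against 10.2 CPM in SW620 and 4.04 against 8.93 CPM in DOX-treated HT-29 (RepSox against DMSO), and LTBP2, a latent TGF-β binding protein gene, of 1.4 against 1.31 CPM in SW620 and 0.879 against 2.15 CPM in DOX-treated HT-29. Neither was called in SW620 and both fell in HT-29 (differences 1.25 and 1.38). Of 12 receptors, the test called 1 higher and 1 lower with RepSox in SW620, and 1 higher and 6 lower in DOX-treated HT-29, and the difference was called for 4 higher and 0 lower. Lower calls made up 50% of the receptors in HT-29, and the higher differences numbered 2 or 3 without any single library. TGFBR1, which encodes the target of RepSox, had 19.5, 21.9 and 18.5 CPM in SW620 with RepSox against 19.6, 21.1 and 22.5 CPM with DMSO. In DOX-treated HT-29 TGFBR1 had 26.1, 26.7 and 26.4 CPM with RepSox against 37.9, 32.2 and 35 CPM with DMSO. It overlapped in SW620 and fell in HT-29 (log2 difference 0.33, SE 0.12, adjusted p = 0.0443), a difference that was lost in the fit of all 18 libraries (adjusted p = 0.0844), with libraries scaled by totals alone (0.0547), without a filter (0.125) and without any single library in turn except SW620 with DMSO replicate 3 and HT-29 iZEB1 with DOX and DMSO replicate 2. TGFBR2, the type II receptor, had 109.5, 118 and 112 CPM in SW620 with RepSox against 100.5, 94.3 and 104 CPM with DMSO. In DOX-treated HT-29 TGFBR2 had 102, 107 and 112 CPM with RepSox against 190.5, 202 and 198 CPM with DMSO. Its HT-29 fall of 1.84-fold stood against a SW620 change that was not called (log2 0.18, adjusted p = 0.063, and 0.0115 when SW620 was fitted alone; log2 difference 1.06, SE 0.08, adjusted p = 1.56e-08). BMPR2, the type II BMP receptor, had a difference of 0.54 (SE 0.11). Shared within 1.5-fold were the rise of TGFBR3, the co-receptor betaglycan (log2 0.33 in SW620 and 0.27 in HT-29), and the fall of the type I receptor ACVR1 (-0.50 and -0.39). The SW620 call of TGFBR3 was lost with library totals (adjusted p = 0.069), with either replicate term (0.051 and 0.11) and without any of 4 SW620 libraries (up to 0.209), and its HT-29 call with the term within each line (0.0572) and without any of 2 HT-29 libraries (up to 0.0966).

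Among 14 SMADs and their regulators, the test called 1 higher and 1 lower with RepSox in SW620, and 0 higher and 8 lower in DOX-treated HT-29, and the difference was called for 8 higher and 0 lower. SMAD3 had 78.1, 81.1 and 84.1 CPM in SW620 with RepSox against 80.8, 85 and 84.7 CPM with DMSO. In DOX-treated HT-29 SMAD3 had 96.4, 96.6 and 92 CPM with RepSox against 211, 218 and 214 CPM with DMSO. The SW620 groups overlapped (log2 -0.04, SE 0.06) and HT-29 fell 2.26-fold (log2 difference 1.13, SE 0.08, adjusted p = 2.91e-09). SMAD7, the inhibitory SMAD that TGF-β induces, had 4.59, 4.25 and 4.87 CPM in SW620 with RepSox against 6.47, 5.35 and 5.9 CPM with DMSO. In DOX-treated HT-29 SMAD7 had 11.8, 9.45 and 11.4 CPM with RepSox against 25.1, 27.5 and 23.2 CPM with DMSO. All RepSox libraries were lower in both lines; the SW620 step was not called (adjusted p = 0.0617, and 0.0293 when SW620 was fitted alone), and the HT-29 step was larger (log2 difference 0.85, SE 0.16, adjusted p = 0.000375). SKIL, a SMAD co-repressor gene, had a difference of 0.87 (SE 0.15), SMURF1 and SMURF2, ubiquitin ligases of the pathway, of 0.34 and 0.38, and the co-repressor gene TGIF1 of 0.50. SMAD6, the inhibitory SMAD of the BMP branch, had 102, 101 and 102 CPM in SW620 with RepSox against 63.4, 62.8 and 61.1 CPM with DMSO. In DOX-treated HT-29 SMAD6 had 86, 79.8 and 73.6 CPM with RepSox against 81.5, 88.1 and 83.7 CPM with DMSO. It was the member that rose in SW620. SMAD4 was at 0.781 against 0.592 CPM in SW620 and 11.8 against 14.4 CPM in DOX-treated HT-29 (means, RepSox against DMSO), with no call in either line and a difference with adjusted p = 0.0858 (0.0456 with DESeq2).

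Listed TGF-β targets were called mainly higher in SW620 and mainly lower in HT-29. Of 41 tested targets, the test called 19 higher and 3 lower with RepSox in SW620, and 10 higher and 23 lower in DOX-treated HT-29, and the difference was called for 27 higher and 6 lower, with 15.7% and 15.4% of all genes in those directions. The median log2 response of the list was 0.24 in SW620 and -0.41 in DOX-treated HT-29, against -0.0034 in SW620 and -0.02 in DOX-treated HT-29 over all genes. Opposite calls, higher in SW620 and lower in HT-29, were found for 10 of the 34 members measured in both lines, among them TAGLN, FN1, ITGA2 and CDKN1C given above, and TGFBI (a matrix protein, log2 0.98 in SW620 and -0.78 in HT-29), ADAM19 (a metalloprotease, 0.53 and -0.52), LTBP3, ITGB5 and TGFB1I1, which were picked from that count after their values were seen. No target was lower in SW620 and higher in HT-29. Over all genes measured in both lines, 2.07% were called higher in SW620 and lower in HT-29, and 0.716% the reverse. PMEPA1, a feedback inhibitor of the pathway that was also picked after its values were seen, was higher in both lines (log2 0.88 in SW620 and 0.24 in HT-29), as was ITGB6. ID1, a target of BMP and TGF-β, had 52.6, 58.4 and 55 CPM in SW620 with RepSox against 80.9, 80.4 and 70.4 CPM with DMSO. In DOX-treated HT-29 ID1 had 19, 20.6 and 19.2 CPM with RepSox against 42.7, 56.5 and 51.9 CPM with DMSO. ID1 fell in both lines and by more in HT-29 (log2 difference 0.88, SE 0.13, adjusted p = 2.45e-05). Of 13 BMP targets, the test called 2 higher and 2 lower with RepSox in SW620, and 2 higher and 7 lower in DOX-treated HT-29, and the difference was called for 7 higher and 2 lower.

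Among 11 tested EMT transcription factors, the test called 2 higher and 0 lower with RepSox in SW620, and 1 higher and 5 lower in DOX-treated HT-29. Without HT-29 iZEB1 with DOX and DMSO replicate 3 the lower calls in HT-29 were 3. Beside ZEB1 and ETS1, SNAI1 had 12.4, 10.3 and 11.6 CPM in SW620 with RepSox against 11.5, 12.1 and 10.5 CPM with DMSO. In DOX-treated HT-29 SNAI1 had 2.37, 1.77 and 2.31 CPM with RepSox against 0.979, 1.28 and 0.866 CPM with DMSO: it overlapped in SW620 and rose in HT-29 (log2 difference -1.04, SE 0.22, adjusted p = 0.00108). SNAI2 rose in SW620 (17.7 against 12.7 CPM, adjusted p = 0.00597) and had no count in either HT-29 group. HMGA2, a chromatin protein gene, fell in HT-29 (log2 -0.28) and was not called in SW620 (log2 0.23, adjusted p = 0.0929; difference 0.51). The HT-29 call of HMGA2 was lost with the 6 HT-29 libraries alone (adjusted p = 0.0625) and without any of 3 HT-29 libraries (up to 0.0777 without DMSO replicate 3).

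**Figure D3:**
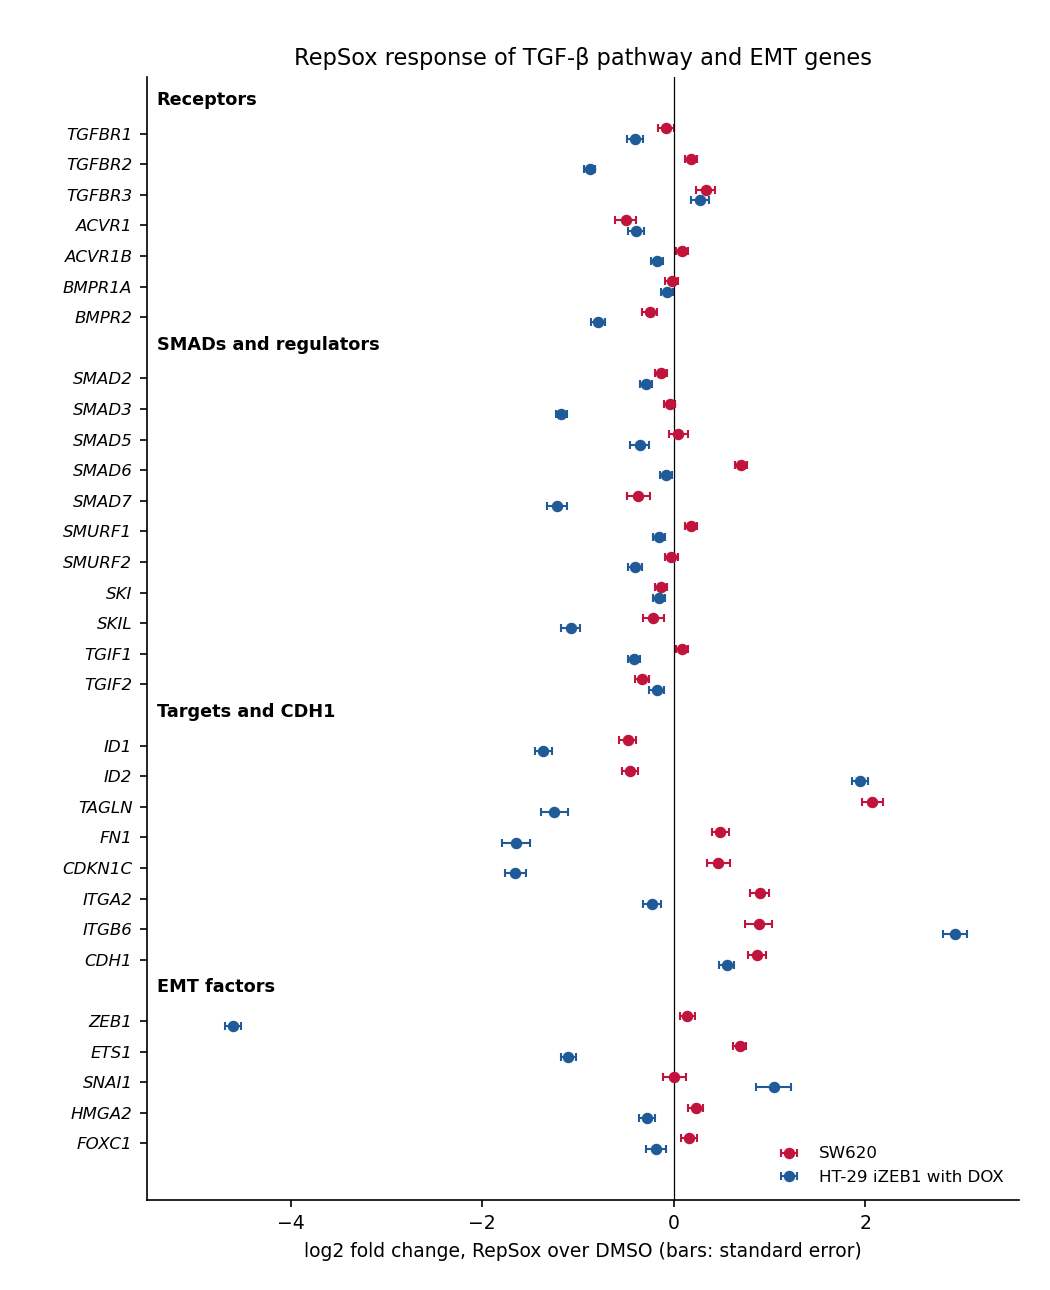
Log2 fold change with RepSox over DMSO of TGF-β pathway and EMT genes in SW620 (red, upper point of each pair) and in HT-29 iZEB1 with DOX (blue, lower point); bars are standard errors of the edgeR fit. SMAD3, SMAD7, SKIL and TGFBR2 move left in HT-29 with a small response in SW620, while TAGLN, FN1, CDKN1C and ETS1 lie on opposite sides of 0.

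In HT-29 epithelial genes were mostly called higher and mesenchymal genes lower, while in SW620 higher calls outnumbered lower ones in both lists. Of 59 tested epithelial genes, the test called 13 higher and 3 lower with RepSox in SW620, and 48 higher and 3 lower in DOX-treated HT-29, with a median log2 response of 0.011 in SW620 and 0.96 in DOX-treated HT-29. The difference was called for 7 higher and 36 lower. The lower calls in SW620 were 6 without HT-29 iZEB1 with DOX and DMSO replicate 2 and 5 without HT-29 iZEB1 with DOX and RepSox replicate 1. EPCAM, an epithelial adhesion molecule, had 336, 319 and 322 CPM in SW620 with RepSox against 329, 320.3 and 332 CPM with DMSO. In DOX-treated HT-29 EPCAM had 547, 573 and 570.0 CPM with RepSox against 206, 196 and 218 CPM with DMSO. It overlapped in SW620 and rose 2.72-fold in HT-29, above the SW620 level (log2 difference -1.45, SE 0.08, adjusted p = 7.39e-11). KRT8 and KRT18, the keratin pair of simple epithelia, rose in both lines: KRT8 had 5726, 5630 and 5950 CPM in SW620 with RepSox against 4011, 3728 and 3738 CPM with DMSO. In DOX-treated HT-29 KRT8 had 6749, 6913 and 6671 CPM with RepSox against 2894, 3271 and 2944 CPM with DMSO. KRT8 rose 1.51-fold in SW620 and 2.23-fold in HT-29, and KRT18 1.39-fold and 2.64-fold. PRSS8, a channel-activating protease gene, and CDS1, a phospholipid enzyme gene, rose in HT-29 (log2 1.87 and 1.63) and averaged 0.0604 and 0.266 CPM in SW620 with DMSO. CDH1, EHF, a transcription factor of epithelia, and KRT80 were the epithelial members called higher in both lines with a difference within 1.5-fold. CLDN1, a claudin, was higher in SW620 and lower in HT-29, and CLDN3, another claudin, the reverse (log2 differences 0.78 and -1.49); EHF, KRT80 and the claudins were named after their values were seen.

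Of 36 tested mesenchymal genes, the test called 10 higher and 4 lower with RepSox in SW620, and 0 higher and 22 lower in DOX-treated HT-29, with a median log2 response of 0.06 in SW620 and -0.86 in DOX-treated HT-29. The difference was called for 19 higher and 1 lower. Opposite calls, higher in SW620, were found for 8 of the 19 members measured in both lines, beside 2.07% of all genes measured in both. They were AXL, CAV1, COL6A1, FN1, MYL9, SERPINE2, TAGLN and TGFB1I1. Those not described above had log2 responses of 0.37 in SW620 and -0.34 in HT-29 (CAV1, the caveolar coat protein), 1.07 and -1.15 (MYL9, a myosin light chain), 0.96 and -1.51 (COL6A1, a collagen chain), 0.25 and -1.78 (SERPINE2, a protease inhibitor) and 0.56 and -1.36 (TGFB1I1, a focal adhesion protein); these were named after their values were seen. LGALS1, galectin-1, fell in both lines (log2 -0.30 and -2.58). COL6A3, a collagen chain below 1 CPM in every group, was the 1 member with a lower response in SW620 by the test. Fibroblast markers, of which LUM and PDGFRB were above 1 CPM, summed to 7.31 to 8.71 CPM in SW620 with RepSox against 12.2 to 13.3 CPM with DMSO, and to 0.562 to 1.18 CPM in DOX-treated HT-29 with RepSox against 0.988 to 1.51 CPM with DMSO, with 3 or 4 of the 9 at 0; their part in these results was not tested. ANGPTL2 and EMP3 are members of this list as well.

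DNA replication and ribosome genes were called mainly in DOX-treated HT-29. Of 50 DNA replication genes, the test called 1 higher and 0 lower with RepSox in SW620, and 48 higher and 0 lower in DOX-treated HT-29, and the difference was called for 0 higher and 48 lower. MCM2, a subunit of the replicative helicase, had 198, 207 and 206 CPM in SW620 with RepSox against 220.5, 225 and 220.4 CPM with DMSO. In DOX-treated HT-29 MCM2 had 274, 269 and 262 CPM with RepSox against 108, 144 and 111 CPM with DMSO. HT-29 rose 2.21-fold, while in SW620 each RepSox library was slightly lower (log2 -0.12, adjusted p = 0.412, and 0.0394 when SW620 was fitted alone; log2 difference -1.27, SE 0.11, adjusted p = 7.20e-08). CDC6, POLE2 and MCM10 had differences of -1.09, -1.12 and -1.05. Of 46 ribosome biogenesis genes, the test called 5 higher and 0 lower with RepSox in SW620, and 45 higher and 0 lower in DOX-treated HT-29, and the difference was called for 0 higher and 42 lower. NOP16, a nucleolar protein gene, had 69.5, 70.9 and 74.1 CPM in SW620 with RepSox against 66.7, 63.5 and 65.8 CPM with DMSO. In DOX-treated HT-29 NOP16 had 45.9, 51.4 and 48.9 CPM with RepSox against 16.6, 15.8 and 18.6 CPM with DMSO. It rose in HT-29 alone by the test (log2 difference -1.39, SE 0.10, adjusted p = 3.97e-09). RRS1, LYAR and RRP9 had differences of -1.30, -1.34 and -1.24. MYC, a transcription factor of cell growth, had 417, 403 and 415 CPM in SW620 with RepSox against 404, 411 and 396 CPM with DMSO. In DOX-treated HT-29 MYC had 378, 378 and 382 CPM with RepSox against 116, 136 and 132 CPM with DMSO. It overlapped in SW620 (log2 0.03, SE 0.06) and rose 2.96-fold in HT-29, where the DMSO level was the lowest of the groups (log2 difference -1.54, SE 0.08, adjusted p = 1.18e-10). Of 75 cytosolic ribosomal protein genes, many of which have near-identical copies, the test called 0 higher and 4 lower with RepSox in SW620, and 37 higher and 1 lower in DOX-treated HT-29. Of 46 mitosis genes, the test called 0 higher and 4 lower with RepSox in SW620, and 10 higher and 5 lower in DOX-treated HT-29 (21.7% and 10.9% there, beside 22.6% and 25.3% of all genes), with differences for 3 higher and 8 lower. Without HT-29 iZEB1 with DOX and DMSO replicate 2 or RepSox replicate 1 the lower differences of mitosis genes were 14, and without DMSO replicate 3 the higher calls in HT-29 were 6. The SW620 counts also moved with single libraries. Higher calls of ribosome biogenesis genes were 9 without HT-29 iZEB1 with DOX and DMSO replicate 2 and 2 without SW620 with DMSO replicate 2 or RepSox replicate 3. Lower calls of ribosomal protein genes were 9 without that HT-29 library and 7 without HT-29 iZEB1 with DOX and RepSox replicate 1.

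Metabolic lists were compared with the same background. Of 34 sterol and fatty acid synthesis genes, the test called 2 higher and 4 lower with RepSox in SW620, and 21 higher and 7 lower in DOX-treated HT-29, with differences for 2 higher and 23 lower. EBP, a sterol isomerase gene, had mean levels of 30.2 against 32.2 CPM in SW620 and 28.3 against 14.9 CPM in DOX-treated HT-29 (RepSox against DMSO). Of 38 hypoxia and glycolysis genes, the test called 0 higher and 6 lower with RepSox in SW620, and 21 higher and 9 lower in DOX-treated HT-29, with differences for 3 higher and 19 lower; HK2, a hexokinase, had mean levels of 95.8 against 88 CPM in SW620 and 99.4 against 33.9 CPM in DOX-treated HT-29. Of 37 genes of the ATF4 stress response, the test called 4 higher and 2 lower with RepSox in SW620, and 23 higher and 3 lower in DOX-treated HT-29, with differences for 2 higher and 20 lower; PHGDH, an enzyme of serine synthesis, had mean levels of 42.6 against 48.8 CPM in SW620 and 101 against 51.5 CPM in DOX-treated HT-29. In HT-29 the lower calls were 20.6% of the sterol list and 23.7% of the hypoxia list, near the 25.3% of all genes, and the higher calls 61.8% and 55.3%. Without HT-29 iZEB1 with DOX and RepSox replicate 2 the lower calls of the sterol list were 4. Lower calls of the hypoxia list in SW620 were 2 or 3 without SW620 with DMSO replicate 1 or any single SW620 RepSox library, and higher calls of the ATF4 list in SW620 were 7 without HT-29 iZEB1 with DOX and DMSO replicate 2. Of 23 genes of the unfolded protein response, the test called 1 higher and 0 lower with RepSox in SW620, and 13 higher and 5 lower in DOX-treated HT-29. Higher calls were 72.2% of the HT-29 calls of this list, against 47.2% of the HT-29 calls over all genes.

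Signalling lists were described in the same way. Of 17 integrin subunits, the test called 7 higher and 0 lower with RepSox in SW620, and 3 higher and 10 lower in DOX-treated HT-29, with differences for 10 higher and 1 lower. Of 21 YAP/TAZ targets, the test called 7 higher and 3 lower with RepSox in SW620, and 3 higher and 14 lower in DOX-treated HT-29, with differences for 11 higher and 1 lower; FJX1 was the only target with a lower response in SW620 (difference -1.63). Of 24 Notch genes, the test called 7 higher and 0 lower with RepSox in SW620, and 4 higher and 12 lower in DOX-treated HT-29. The receptor NOTCH1, the ligands JAG1 and DLL4 and the effector HES1 were the 4 called higher in SW620 and lower in HT-29. They were 4 of the 12 Notch genes measured in both lines, beside 2.07% of all genes measured in both. Of 27 ERK outputs, the test called 9 higher and 2 lower with RepSox in SW620, and 7 higher and 12 lower in DOX-treated HT-29, with differences for 14 higher and 4 lower; ETV1, a transcription factor, had mean levels of 34.2 against 40.7 CPM in SW620 and 5.41 against 38.6 CPM in DOX-treated HT-29. Of 20 NF-κB and cytokine genes, the test called 8 higher and 1 lower with RepSox in SW620, and 6 higher and 5 lower in DOX-treated HT-29, with differences for 8 higher and 2 lower. Of 25 WNT target and stem cell genes, the test called 7 higher and 7 lower with RepSox in SW620, and 8 higher and 12 lower in DOX-treated HT-29. NOTUM, a secreted WNT deacylase, had 714, 692 and 704 CPM in SW620 with RepSox against 864, 837 and 742 CPM with DMSO. In DOX-treated HT-29 NOTUM had 0.114, 0.273 and 0.385 CPM with RepSox against 2.14, 3.17 and 2.7 CPM with DMSO. Its HT-29 fall came at a level far below that of SW620 (log2 difference 3.14, SE 0.26, adjusted p = 3.24e-08). Among 17 Eph receptors and ephrins, the test called 3 higher and 0 lower with RepSox in SW620, and 5 higher and 5 lower in DOX-treated HT-29. Without HT-29 iZEB1 with DOX and RepSox replicate 2 the lower calls of integrins in HT-29 were 6. Higher differences of NF-κB and cytokine genes were 5 without SW620 with DMSO replicate 3, and their lower calls in HT-29 were 3 without DMSO replicate 1. Lower calls of WNT genes in SW620 were 3 without RepSox replicate 2 and 4 without RepSox replicate 3.

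The remaining lists are given beside the shares of all genes, which were 22.6% higher and 25.3% lower in HT-29 and 5.23% and 4.11% in SW620. Of 13 genes of the aryl hydrocarbon receptor, a sensor of small aromatic molecules, the test called 1 higher and 7 lower with RepSox in SW620, and 2 higher and 10 lower in DOX-treated HT-29. ALDH3A1, an aldehyde dehydrogenase, had 13.7, 14.9 and 16.3 CPM in SW620 with RepSox against 24.4, 25.8 and 20.4 CPM with DMSO. In DOX-treated HT-29 ALDH3A1 had 21.9, 19.8 and 18.4 CPM with RepSox against 132, 139 and 125 CPM with DMSO. It fell in both lines and by more in HT-29 (log2 difference 2.07, SE 0.13, adjusted p = 7.12e-10). CYP1A1, the usual marker of that receptor, had mean levels of 0.729 against 1.64 CPM in SW620 and 0.14 against 0.429 CPM in DOX-treated HT-29 and a lower call in each line (adjusted p = 0.0401 in SW620 and 0.0213 in HT-29) with no called difference (0.673). The SW620 call of CYP1A1 was lost with limma-voom (0.0505), with either replicate term (0.0649 and 0.0501) and without any single SW620 library (0.0669 to 0.152) or HT-29 iZEB1 with DOX and RepSox replicate 2 (0.0508). Its HT-29 call was lost with the 6 HT-29 libraries alone (0.067) and without DMSO replicate 1 (0.117) or RepSox replicate 3 (0.0824). Lower calls of this list in SW620 were 4 without any of 4 SW620 libraries. Of 28 NRF2 targets, the test called 1 higher and 8 lower with RepSox in SW620, and 4 higher and 15 lower in DOX-treated HT-29, with differences for 13 higher and 3 lower. OSGIN1 fell 2.04-fold in SW620 and 3.9-fold in HT-29, and AKR1C1, whose paralogs share sequence, 1.41-fold and 2.54-fold. Of 32 lysosome and autophagy genes, the test called 2 higher and 4 lower with RepSox in SW620, and 3 higher and 24 lower in DOX-treated HT-29, with differences for 19 higher and 3 lower; NEU1, a sialidase gene, fell 1.33-fold and 3.01-fold. Of 29 p53 targets, the test called 3 higher and 2 lower with RepSox in SW620, and 2 higher and 18 lower in DOX-treated HT-29; TP53INP1 had mean levels of 0.421 against 0.661 CPM in SW620 and 1.8 against 25.6 CPM in DOX-treated HT-29. In the BCL2 family, of 14 genes, the test called 2 higher and 1 lower with RepSox in SW620, and 3 higher and 5 lower in DOX-treated HT-29. Of 18 cyclins and CDK inhibitors of G1, the test called 4 higher and 2 lower with RepSox in SW620, and 5 higher and 7 lower in DOX-treated HT-29, with CDKN2B, the inhibitor p15, at 42.8 against 40 CPM in SW620 and 9.47 against 17.1 CPM in DOX-treated HT-29 (RepSox against DMSO). Of 40 intestinal differentiation genes, the test called 5 higher and 4 lower with RepSox in SW620, and 12 higher and 14 lower in DOX-treated HT-29; MUC2, the goblet cell mucin, rose in SW620 (adjusted p = 0.000273) below 1 CPM, and TFF3, a goblet cell peptide gene, had mean levels of 23.6 against 24.8 CPM in SW620 and 2.42 against 11.2 CPM in DOX-treated HT-29. Of 12 microRNA host genes, the test called 0 higher and 1 lower with RepSox in SW620, and 3 higher and 3 lower in DOX-treated HT-29, and MIR22HG fell in both lines (log2 -0.71 and -2.62). NRF2 targets had 5 lower calls in SW620 without SW620 with RepSox replicate 1. Their lower differences were 5 without SW620 with RepSox replicate 3 or HT-29 iZEB1 with DOX and DMSO replicate 2. The counts of the BCL2, G1, intestinal and microRNA host lists are given as values, and nothing is read from them. The SW620 call of NEU1 was lost without SW620 with DMSO replicate 1 (adjusted p = 0.0524), and that of MIR22HG without DMSO replicate 2 (0.0543) or RepSox replicate 3 (0.0825).

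Some lists depended on the library that stood apart. Of 43 interferon-stimulated genes, the test called 0 higher and 3 lower with RepSox in SW620, and 0 higher and 30 lower in DOX-treated HT-29, with differences for 8 higher and 0 lower. MX2, an antiviral GTPase gene, had 8.56, 9.6 and 8.07 CPM in SW620 with RepSox against 8, 9.84 and 9.32 CPM with DMSO. In DOX-treated HT-29 MX2 had 25.7, 19.9 and 23.6 CPM with RepSox against 42.4, 108 and 38.7 CPM with DMSO. The DMSO library at 108 CPM is HT-29 iZEB1 with DOX and DMSO replicate 2, in which members of this list deviated from their group by a mean log2 of 0.49, against -0.23 and -0.26 in the other libraries of that group; without it the differences were 7 higher and 5 lower, the SW620 calls 1 higher and 18 lower, and the HT-29 calls 0 higher and 24 lower. The higher differences were 5 without any of 5 other libraries. STAT2 had 35.4, 37.9 and 37.2 CPM in SW620 with RepSox against 38.7, 41 and 36 CPM with DMSO. In DOX-treated HT-29 STAT2 had 47.8, 45.1 and 43.3 CPM with RepSox against 98.1, 132 and 101 CPM with DMSO. It fell in HT-29 and overlapped in SW620 (log2 difference 1.21, SE 0.13, adjusted p = 8.31e-07). Of 15 MHC class I genes, the test called 0 higher and 0 lower with RepSox in SW620, and 0 higher and 8 lower in DOX-treated HT-29, with differences for 7 higher and 0 lower, and 5 and 0 without that library (its deviation was 0.43). Of 13 mitochondrially encoded mRNAs, the test called 1 higher and 0 lower with RepSox in SW620, and 0 higher and 5 lower in DOX-treated HT-29, with differences for 10 higher and 0 lower, and 13 and 0 without it (its deviation was -0.53). Without it the SW620 calls were 6 higher and 0 lower and the HT-29 calls 0 higher and 13 lower. Leaving out other libraries in turn gave as few as 4 higher differences, without HT-29 iZEB1 with DOX and DMSO replicate 3, and as few as 2 lower calls in HT-29. MT-CYB had 2222, 1754 and 2311 CPM in SW620 with RepSox against 1583, 1761 and 1642 CPM with DMSO. In DOX-treated HT-29 MT-CYB had 2117, 1946 and 2377 CPM with RepSox against 3235, 2282 and 3762 CPM with DMSO. Its groups overlapped in both lines. Of 22 replication-dependent histone genes, whose mRNAs mostly lack poly(A) tails and which share sequence, the test called 0 higher and 2 lower with RepSox in SW620, and 0 higher and 14 lower in DOX-treated HT-29.

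**Figure D4:**
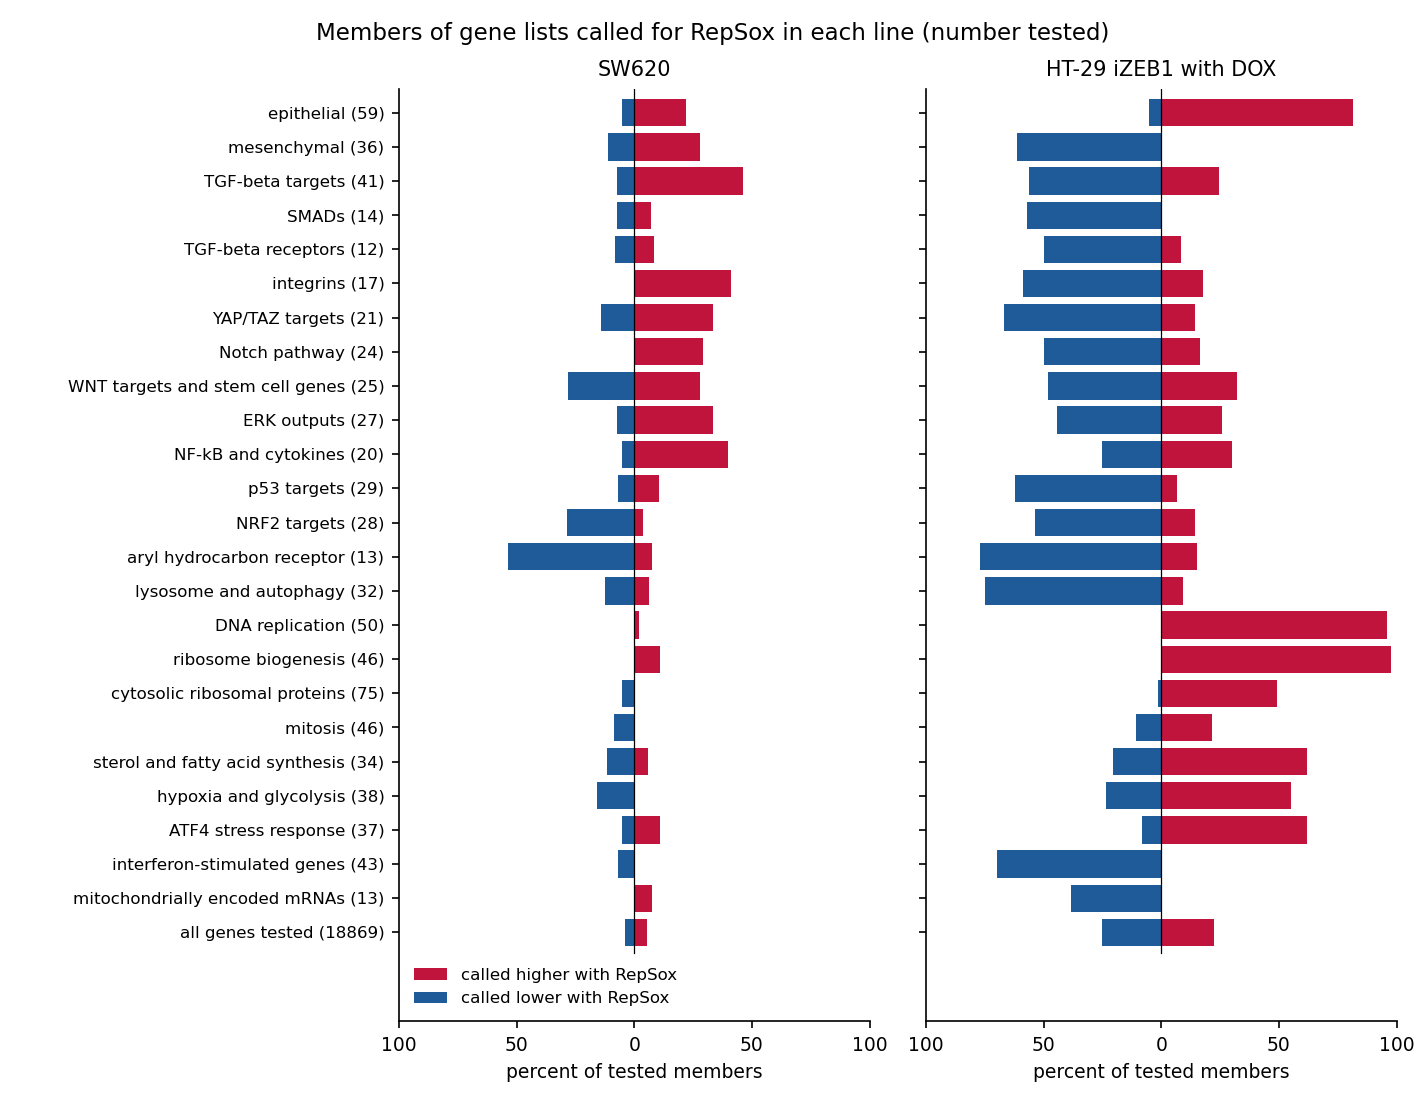
Percent of the tested members of each gene list called higher (red, to the right) or lower (blue, to the left) with RepSox in SW620 (left panel) and in HT-29 iZEB1 with DOX (right panel), with the number tested in brackets and all genes tested in the last row. DNA replication and ribosome biogenesis fill the right side in HT-29 and are nearly empty in SW620, and mesenchymal genes, TGF-β targets and integrins point to the right in SW620 and to the left in HT-29.

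Other features of the genes in each pattern were described, the first of which is not independent of the calls. Of the 2283 genes that were higher in DOX-treated HT-29 and not called in SW620, 75.9% had a higher mean in SW620 with DMSO than in DOX-treated HT-29 with DMSO, against 32.5% of the 1846 that were lower and 49.5% of all genes measured in both lines. The DMSO libraries enter both sides of these shares, which are therefore a description. Genes in opposite directions had no such lean when they were higher in SW620 (47.5% of 255) and a small one when they were lower there (59.1% of 88). Protein-coding genes made up 97.3% of the 255 and 95.4% of the 88, against 88.8% of the genes measured in both lines. This was not particular to opposite genes. The share was 96% of the 360 shared genes, and 95.1% (higher) and 96% (lower) of those changed the same way by more in HT-29. It was 91.3% (higher) and 92.1% (lower) of genes called in HT-29 and not in SW620, and 86.2% of those with no called difference. A CArG box stood in 4.18% of the windows of genes higher in SW620 and lower in HT-29 (311 windows), beside the 1.06% given above. It stood in 0% of the 94 windows of the reverse pattern, too few to read for so rare a box. The share was 4.88% for genes higher in both lines by more in SW620 (41 windows). It was 2.48% for genes called higher in SW620 and not called in HT-29 (202 windows). These shares rest on 2 and 5 windows with a box, which is also too few to read. It was 0.467% for the shared genes (428 windows), and 0.969% (higher) and 1.21% (lower) for genes called in HT-29 and not in SW620. For genes changed the same way by more in HT-29 it was 0.847% (higher) and 1.61% (lower). CAGACA on either strand, the third sequence searched, stood in 14.5% and 18.1% of the windows of the opposite patterns in the same order. Its share was 12.7% for genes measured in both lines.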

How the data were processed

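RNA sequencing of SW620 and HT-29 iZEB1 cells gave a table of whole-number counts per gene, deposited by the authors and not normalized. Build GRCh38.p13, HISAT2 2.2.0 and featureCounts 2.0.0 are listed in the submitters' processing notes, beside FastQC 0.11.9 and DESeq2 (version 1.34.0). For their settings and for strand the sources used here give nothing.

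Here 12 libraries of 36.8 to 39.8 M counts were fitted together by group with edgeR 4.0.16 (R 4.3.3): TMM scaling, filterByExpr with a minimum count of 10, the quasi-likelihood test and Benjamini-Hochberg adjustment over 18869 genes, called at an adjusted p below 0.05. The filter kept at least 99.94% of counts, and the common biological coefficient of variation was 7.53%. SE is the absolute log2 value over the square root of F. Alternatives were median-of-ratios scaling, library totals, no filter, genes measured in both lines, DESeq2 1.42.0, limma-voom (limma 3.58.1), replicate terms, all 18 libraries, each line's 6 libraries alone and leaving out each library. The fit was tested on simulated data. Coordinates came from GENCODE 29 by symbol (18070 of the genes tested; H1-10 had none), promoter windows from RefSeq.

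Genes named were ZEB1, CDH1, VIM, SMAD7, ID1, CYP1A1 and TGFBR1, up to 3 with the largest difference in each of 10 patterns (at least 5 CPM in 1 group), up to 4 shared responses per direction, up to 2 per line and direction measured in 1 line, up to 4 called members of each list, and all listed receptors, SMADs and EMT factors; other list members were named after their values were seen. The members and lists were chosen with earlier results of these data known. Some items are not reported here.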

Additional observations from a re-analysis of the deposited data

Results flagged for a closer look

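Among the 205 genes that the naming rule gave, 26 of those reported here were measured in both lines and called in opposite directions with RepSox. A called difference was part of how these genes were picked (edgeR's quasi-likelihood test, adjusted p below the threshold of 0.05 for each). It is therefore no further support for the opposite calls. The values are log2 differences of the responses, SW620 minus DOX-treated HT-29, with 3 libraries in each of the 4 groups. The 19 genes higher in SW620 and lower in HT-29 had differences of 3.32 for TAGLN, 3.21 for IGFL2-AS1, 3.20 for TSPAN32, 2.34 for WIPI1, 2.29 for DKK1, 2.20 for AXL and 2.13 for FN1, of 2.12 for CDKN1C, 1.99 for MYOF, 1.95 for JAG1, 1.84 for EPHB6, 1.79 for ETS1 and 1.75 for SOX4, and of 1.27 for EFNB2, 1.25 for GDF15, 1.23 for TNFAIP3, 1.12 for ITGA2, 0.96 for ITGA1 and 0.90 for ITGB1. The 7 genes lower in SW620 and higher in HT-29 had differences of -0.53 for RPL3, -1.27 for FOS, -2.09 for CA9, -2.40 for ID2, -2.60 for ARG2, -3.32 for LINC00514 and -3.82 for MAB21L4. RPL3, a ribosomal protein gene, has copies of similar sequence, so its count is uncertain to that extent. ZEB1 fell with RepSox in the HT-29 libraries (log2 -4.60) and was not called in SW620 (log2 0.14), and its part in these opposite responses was not tested. For TSPAN32, CDKN1C, ITGA2, ITGA1, FOS, CA9 and LINC00514 the call in 1 of the lines was lost under some other setting or without some library. For TNFAIP3 the calls in both lines were lost in this way. The differences of all these genes kept their call. Groups held 3 libraries, so single libraries were not tested as outliers.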

How the results depend on the processing

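No called log2 value of a named gene changed sign under the alternatives run, while the balance of higher and lower calls turned under those named beside the counts in the results, among them library totals for SW620 (830 higher, 1058 lower). Counts moved by over 1.5 times under these settings. With the replicate number as a term within each line, 467 genes were called lower in SW620 (776 in the fit as run), 248 were called in opposite directions (381) and 500 in the same direction (803), over all genes tested. With the 6 SW620 libraries fitted alone, 3338 genes were called in SW620, 1754 higher and 1584 lower, and 1388 were called the same way in both lines. Under a replicate block shared by the 4 groups, 5574 differences were called. Deviations of same-numbered libraries from their group means had r of -0.352 to 0.101 within a line and -0.17 to 0.238 between lines. For other-numbered libraries r was -0.326 to 0.38 within a line and -0.316 to 0.3 between lines. Deviations from a mean of 3 libraries are not independent, so these ranges cannot show whether the numbers pair the samples. The labels do not state a pairing.

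Leaving out each library in turn gave 4990 to 6171 called differences (2324 to 3085 higher, 2513 to 3137 lower), 1124 to 2267 calls in SW620 (682 to 1242 higher, 428 to 1025 lower) and 8050 to 9027 in DOX-treated HT-29 (3785 to 4617 higher, 4185 to 4769 lower). Opposite calls numbered 257 to 464, and calls in the same direction 491 to 1023. The cause of these shifts was not tested, beyond the fewer samples of each fit. Of the calls of named genes, 9 of 90 in SW620 and 14 of 172 in HT-29 were lost under another setting, and 19 and 18 without some library. Of the 170 named genes with a called difference, 14 lost it under some other setting and 20 without some library. Without HT-29 iZEB1 with DOX and DMSO replicate 2, an alternative chosen after seeing the data, mitosis genes had 3 higher and 14 lower differences against 3 and 8, and lysosome genes 16 and 3 against 19 and 3. With 3 libraries per group, a gene without a call may still have responded.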

Other observations

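HT-29 iZEB1 without DOX is a side of no comparison above. Of the fits above it enters only the alternative one of all 18 libraries. Its levels are given as values only (mean CPM ± SD, n = 3 each, all 18 libraries scaled together). FGF19 was at 175 ± 5.96 CPM with RepSox and 118 ± 2.64 CPM with DMSO in these cells, while with DOX it was at 126 ± 12.4 CPM with RepSox and 7.34 ± 1.03 CPM with DMSO. ANGPTL2 was at 0.81 ± 0.456 CPM with RepSox and 0.722 ± 0.224 CPM with DMSO without DOX, and EMP3 at 1.18 ± 0.395 and 2.01 ± 0.14 CPM. S100A14 was lower on average with RepSox without DOX, at 32.6 ± 1.27 CPM against 44.3 ± 1.03 CPM with DMSO, whereas with DOX it was higher with RepSox (13.1 ± 1.56 CPM against 1.97 ± 0.237 CPM). MAB21L4 had the same order of means, as given above. ARG2 was at 5.06 ± 0.478 CPM with RepSox against 1.7 ± 0.124 CPM with DMSO without DOX, TAGLN at 2.75 ± 0.487 against 4.04 ± 0.462 CPM and EGR1 at 9.27 ± 0.889 against 34 ± 0.93 CPM. None of these values was tested here.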
